A study of Rattus norvegicus with 8 samples.

Results

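The transcripts described here belong to 10 genes that ERK signalling is known to induce: the phosphatase genes Dusp4, Dusp5 and Dusp6, the inhibitor genes Spry1, Spry2, Spry4 and Spred1, and the PEA3 transcription factor genes Etv1, Etv4 and Etv5. All probe sets whose annotation names 1 of these genes and no other gene were taken, which gave 17 of the 31042 probe sets tested and 9 of the 10 genes. No probe set used here names Spred1, so it was not analysed here. The genes were listed by name, with earlier results of these data known, and the rule uses no measured value. Dusp6 has 3 probe sets, Etv1 has 5, Etv4 and Etv5 have 2 each, and the other 5 genes have 1 each. A gene is given by its probe set of highest mean level where only 1 value is shown.

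The cells were primary chondrocytes, the cartilage-forming cells, cultured on plastic from the femoral condyles of neonatal Sprague Dawley rats. Cultures were kept in serum-free medium overnight and received either the solvent DMSO or U0126, an inhibitor of the kinases MEK1/2 that activate ERK1/2, for 30 min. Either BSA vehicle or the inflammatory cytokine TNFα at 30 ng/ml was then added for 24 h. The 4 treatments were therefore DMSO with vehicle, U0126 with vehicle, DMSO with TNFα, and U0126 with TNFα (the combined treatment below), so every control culture also carried DMSO and vehicle. The treatments were run side by side in 2 independent experiments, with 1 array for each culture and 8 arrays altogether, and all values are intensities of Affymetrix RAT230_2.0 arrays centred on the array median. These values ask which of the genes depended on MEK1/2 activity in resting chondrocytes, which responded to TNFα, and whether the responses depended on each other.

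ERK is the last kinase of a cascade that runs from growth factor receptors through RAS, RAF and MEK, and the cascade limits itself through genes that it induces. Dusp6 protein removes the activating phosphates from ERK in the cytoplasm, and the Dusp4 and Dusp5 proteins do so in the nucleus. Sprouty and Spred proteins act upstream and hold back the step from receptor to RAF. Etv1, Etv4 and Etv5 form the PEA3 group of ETS factors, whose transcription follows FGF and ERK activity in many embryonic tissues, cartilage among them, so transcripts of these genes are commonly read as a measure of ERK pathway output.

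The promoters of Dusp6 and Etv5 are shown because these are the 2 genes with a called fall in the average effect of U0126 below. Both are the 250 bases before the start in RefSeq on build GRCr8, read 5′ to 3′ on the plus strand, Dusp6 at chr7:35979354-35979603 and Etv5 at chr11:92113013-92113262. Capitals mark a match to a searched motif.
Dusp6: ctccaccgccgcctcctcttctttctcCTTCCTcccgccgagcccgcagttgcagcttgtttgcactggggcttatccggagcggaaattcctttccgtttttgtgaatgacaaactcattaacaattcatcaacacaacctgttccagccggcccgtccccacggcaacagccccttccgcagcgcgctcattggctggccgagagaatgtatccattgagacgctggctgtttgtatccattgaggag
Etv5: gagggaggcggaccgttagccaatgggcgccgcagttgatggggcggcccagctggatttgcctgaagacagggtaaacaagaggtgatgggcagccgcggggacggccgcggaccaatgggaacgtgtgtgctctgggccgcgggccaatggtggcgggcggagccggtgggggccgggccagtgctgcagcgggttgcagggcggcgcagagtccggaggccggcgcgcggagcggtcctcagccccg
Of the members, 8 had such a promoter, and Spry2 had a pair of them. On both strands, 5 motifs were searched. The ETS core CCGGAA, present in 12.6% of all 33469 promoters, was found for Spry2 and Spry4. The PEA3 core AGGAAG, present in 29.5%, was found for Dusp5 and Dusp6, in each as its reverse complement CTTCCT, and in Dusp6 it begins 223 bases before the start. The CRE TGACGTCA (1.59%), the AP-1 motif TGANTCA (6.34%) and the EGR motif GCGGGGGCG (2.45%) were found in none of the members, and Spry1, Spred1, Etv1 and Etv5 held none of the 5 in this window. Since the PEA3 core is in so many promoters, these matches describe the sequences only.

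The cells carried the transcripts of chondrocytes. The 9 of 11 chondrocyte markers that could be measured, with Col2a1, Acan and Hapln1 among them, had summed intensities of 98438 to 199119 on the 8 arrays, against 1733 to 2731 for 6 macrophage markers and 347 to 779 for 3 endothelial markers. Col1a1 and Col3a1, typical of fibroblasts and of chondrocytes that have lost their shape in culture, were also bright, and the 4 fibroblast markers summed to 48587 to 63445. Marker sums moved with the treatments. In experiments 1 and 2 the chondrocyte sum was 190865 and 125783 on the DMSO arrays, 199119 and 138322 on the U0126 arrays, 148658 and 98438 on the TNFα arrays, and 188207 and 127242 with the combined treatment. The macrophage sum was 1781 and 2366, 1733 and 2011, 2699 and 2731, and 1783 and 2030 in the same order, so TNFα arrays were lowest for the former and highest for the latter. The higher macrophage sum lay in Cd68, Cd14 and Adgre1, while Ptprc stayed between 60.6 and 69.7, Csf1r was 168 and 244 with TNFα against 193 and 239.9 with DMSO, and Itgam was 298 and 297 against 313 and 312. The 4 smooth muscle markers summed to 13045 and 8639, 11790 and 8314, 8764 and 9244, and 13524 and 11574. The part of these sums in the values below, for U0126 under TNFα as for TNFα, was not tested, and in these cultures fewer cells of a type and less RNA per cell cannot be told apart. Several of the genes also differed in level between the experiments. Over the 4 treatments, experiment 2 was at 2.10-fold the level of experiment 1 for Etv5, 1.70-fold for Etv1, 1.48-fold for Spry1 and 1.37-fold for Dusp6. It was at 0.811-fold for Dusp5 and 1.01-fold for Spry4. Every comparison was therefore made within an experiment.

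**Figure D1:**
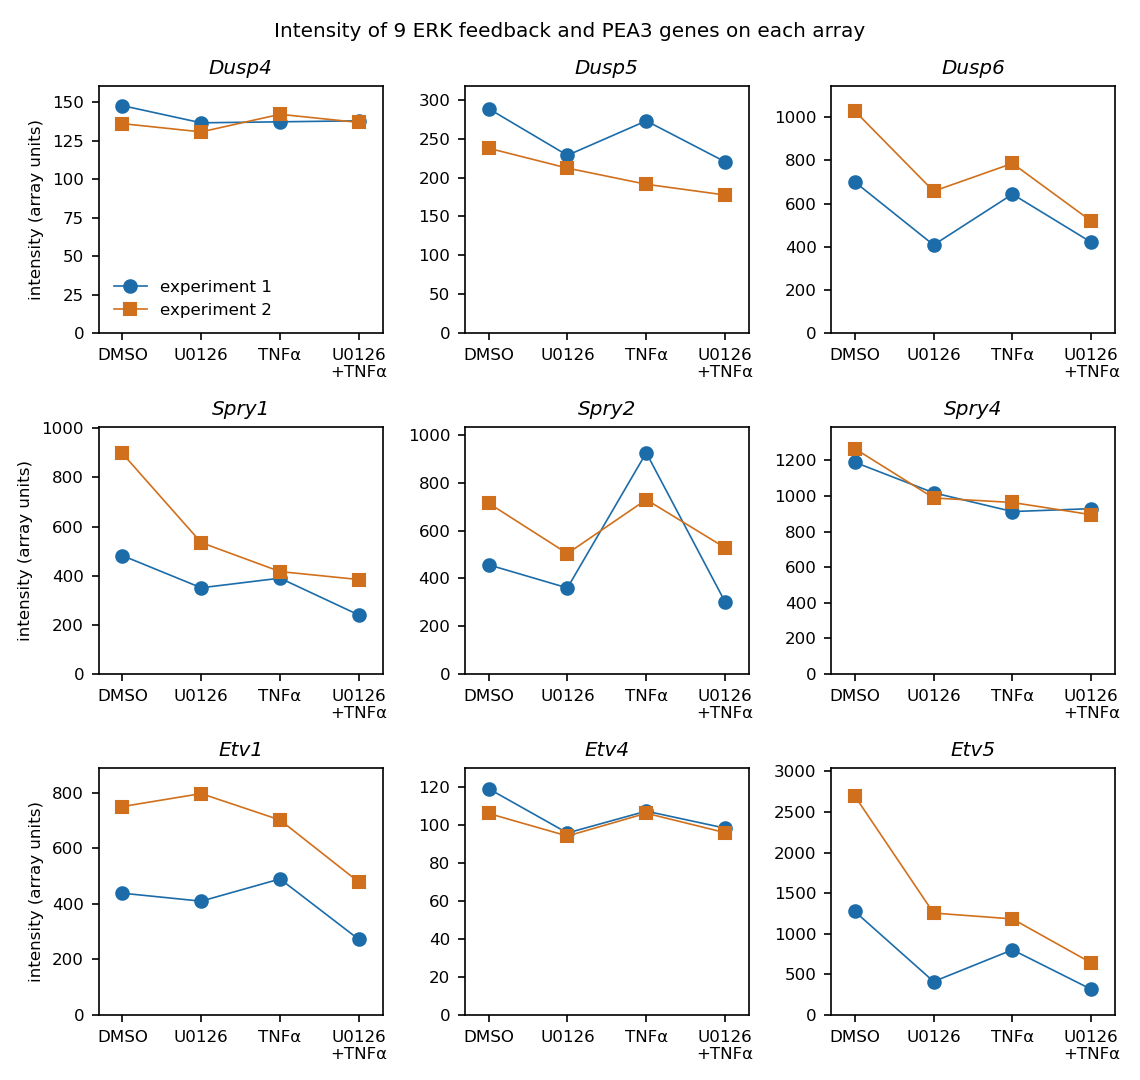
Centred intensity (linear array units, each panel with its own axis from 0) of the 9 measured genes on each of the 8 arrays, with circles for experiment 1 and squares for experiment 2. Etv5, Dusp6 and Spry1 were highest with DMSO in both experiments, Etv1 was lowest with U0126 and TNFα, and Dusp4 lay between 131 and 148 on all arrays.

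Averaged over vehicle and TNFα, the transcripts of Dusp6 and of 1 of the 2 Etv5 probe sets fell with U0126, and no member rose. Both were lower with U0126 in all 4 pairs of arrays, but taken without TNFα (adjusted p = 0.148 for each) or with it (0.0940 for Dusp6 1387024_at and 0.0989 for Etv5 1383447_at, limma) neither passed. In this average effect, 4 of the 17 probe sets fell at an adjusted p under 0.05 by limma, all 3 of Dusp6 and 1 of Etv5, where 0.309% of all probe sets fell and 0.551% rose. The log2 fold change was negative for 17 of 17 members, against 51.5% of all probe sets, and its median was -0.29 against -0.00 over all probe sets. Lower values with U0126 in all 4 pairs of arrays were seen for 9 of the 17 probe sets, from 6 genes, where 10.5% of all probe sets did so. Probe sets of 1 gene share its transcript and are not separate evidence.

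Of the phosphatase genes, Dusp6 was the one that fell with U0126. Its probe set 1387024_at had DMSO intensities of 700.1 and 1029 in experiments 1 and 2, against 408 and 657 in the U0126 arrays, 643 and 786 in the TNFα arrays and 420.2 and 518 in the combined treatment. The arrays with U0126 were all below both DMSO arrays, and the combined treatment was below TNFα in each experiment. U0126 left 0.583 and 0.639 of the DMSO level without TNFα, and 0.653 and 0.660 of the TNFα level with it. Averaged over vehicle and TNFα, Dusp6 fell by 0.66 ± 0.08 (SE) on the log2 scale (adjusted p = 0.0230, limma). The effects of U0126 with and without TNFα differed by 0.11 on the log2 scale, with a 95% interval from -0.26 to 0.47 (adjusted p = 0.847, limma). For the Dusp6 probe sets 1382778_at and 1377064_at this difference was 0.08 (-0.32 to 0.48) and -0.23 (-0.81 to 0.35). These wide intervals do not settle whether the effect changed with TNFα.

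The other Dusp6 probe sets gave like average effects of U0126. For 1382778_at the DMSO intensities were 286 and 368, those of U0126 186 and 199, those of TNFα 261 and 252, and those of the combined treatment 169.8 and 153, and the average effect of U0126 was -0.71 ± 0.08 (adjusted p = 0.0249). Probe set 1377064_at is dimmer, with 151 and 324 for DMSO, 102 and 173 for U0126, 197 and 263 for TNFα, and 103 and 132 for the combined treatment, and its average effect was -0.85 ± 0.12 (adjusted p = 0.0385). Over the 8 arrays, with the mean of each experiment removed, the 3 probe sets correlated with each other at r = 0.935 to 0.977, as a description of arrays that share treatments. The calls rest on few arrays. Leaving out either U0126 array, either combined array or the DMSO array of experiment 2 ended the call of all 3 (the TNFα array of experiment 1 also for 1377064_at), with adjusted p of 0.0547 to 0.187 in those fits, while the average effects were all -0.58 or lower over the 8 arrays left out in turn.

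TNFα had no called effect on Dusp6. Under DMSO, TNFα left 0.919 and 0.764 of the level of 1387024_at (log2 -0.26 ± 0.11, adjusted p = 0.194), and after U0126 it left 1.03 and 0.789 (-0.15 ± 0.11, adjusted p = 0.638). In order of mean level the treatments ran DMSO (864 ± 232, SD, n = 2), TNFα (715 ± 101), U0126 (532 ± 176) and the combined treatment (469 ± 69.4). Neither DMSO and TNFα nor U0126 and the combined treatment differed by the test, and the order of the last pair turned in experiment 1.

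Dusp5 and Dusp4, whose products act on ERK in the nucleus, varied less. Dusp5 had intensities of 289 and 238 on the DMSO arrays, 229 and 212 on the U0126 arrays, 273 and 191 on the TNFα arrays and 220.3 and 178 with the combined treatment. U0126 arrays were below their partners in all 4 pairs, at 0.792 to 0.928 of them, but the average effect of -0.23 ± 0.07 did not pass (adjusted p = 0.186). Dusp4 lay between 131 and 148 on every array, a level above that of 24.0% of all probe sets, and its average U0126 effect of -0.05 had a 95% interval from -0.17 to 0.06. Whether a probe set at this level measured its transcript cannot be read from the values, since no detection calls were used.

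Among the Sprouty genes, whose products restrain receptor signalling, Spry1 and Spry4 fell with TNFα and Spry2 was not called. Spry4 gave 1189 and 1266 in the DMSO cultures, 1018 and 989 after U0126, 912 and 963 after TNFα, and 928 and 895 with the combined treatment. The DMSO arrays stood above all others, and the other 6 arrays lay between 895 and 1018. TNFα left 0.767 and 0.761 of the DMSO level, a fall of 0.39 ± 0.07 on the log2 scale (adjusted p = 0.0272), and Spry4 was the 1 member of 17 called for TNFα against DMSO, where 1.78% of all probe sets fell and 3.41% rose. After U0126, TNFα left 0.912 and 0.905 (-0.14 ± 0.07, adjusted p = 0.473), and U0126 alone left 0.856 and 0.781 of DMSO (-0.29 ± 0.07, adjusted p = 0.238). The difference between the TNFα effects with and without U0126 was 0.25 (95% interval 0.02 to 0.48, unadjusted p = 0.0359, adjusted p = 0.529, limma). The TNFα call of Spry4 was lost when any 1 of the 8 arrays was left out (log2 -0.34 to -0.44, adjusted p 0.0560 to 0.146).

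For Spry1, DMSO intensities were 482 and 898, and the other treatments gave 351 and 535 for U0126, 390.2 and 417 for TNFα, and 240.1 and 385 for the combination. Spry1 was lowest with the combined treatment in both experiments, at 0.498 and 0.428 of DMSO. TNFα left 0.809 of the DMSO level in experiment 1 and 0.464 in experiment 2, and after U0126 it left 0.684 and 0.719. Averaged over DMSO and U0126, Spry1 fell with TNFα by 0.61 ± 0.12 (adjusted p = 0.0278), a call lost without the DMSO array of experiment 2, either U0126 array or either combined array (adjusted p 0.0776 to 0.112, log2 -0.45 to -0.77 over all arrays left out). The single comparison with DMSO was -0.71 ± 0.17 (adjusted p = 0.0615), and without the TNFα array of experiment 1 it became -1.02 (adjusted p = 0.0145). Its average U0126 effect was -0.51 ± 0.12 (adjusted p = 0.121).

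Spry2 did not repeat between the experiments with TNFα. It gave 457 and 715 in the DMSO cultures, 360.4 and 504 after U0126, 926 and 730.2 after TNFα, and 302 and 529 with the combined treatment. TNFα alone gave 2.03-fold the DMSO level in experiment 1 and 1.02-fold in experiment 2, so the effect of 0.52 ± 0.25 did not pass (adjusted p = 0.228). Without the TNFα array of experiment 2 it was 1.02 (adjusted p = 0.00797), the 1 setting in which a member was called higher. With U0126, Spry2 was at 0.788 and 0.705 of DMSO, and the combined treatment was at 0.326 and 0.724 of TNFα (-1.04 ± 0.25, adjusted p = 0.163). All 4 pairs were thus lower with U0126, with an average effect of -0.73 ± 0.17 (adjusted p = 0.122; -0.98 and 0.00886 without the TNFα array of experiment 2).

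**Figure D2:**
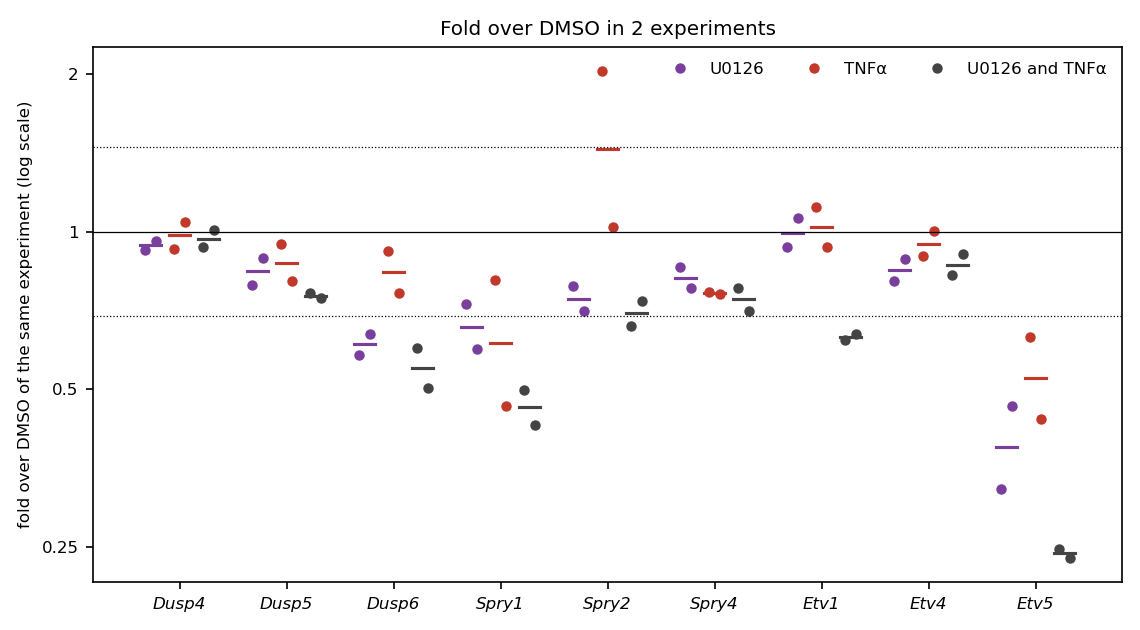
Fold over the DMSO array of the same experiment (log axis) for the 9 genes, each by 1 probe set, with a point per experiment, a short bar at the geometric mean, and dotted lines at 1.45-fold up and down. Etv5 was at 0.248 and 0.238 of DMSO with the combined treatment, Etv1 was near 1 with each agent alone and at 0.620 and 0.637 with both, and the TNFα points of Spry2 lay at 2.03 and 1.02.

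Etv5 showed the widest range of the members. On probe set 1383447_at the DMSO arrays of experiments 1 and 2 gave 1276 and 2697, the U0126 arrays 412 and 1255, the TNFα arrays 803 and 1183, and the arrays of the combined treatment 316 and 642. Within each experiment DMSO was highest and the combined treatment lowest, while U0126 was below TNFα in experiment 1 and slightly above it in experiment 2. U0126 left 0.323 and 0.465 of the DMSO level and 0.394 and 0.542 of the TNFα level. The average fall of 1.24 ± 0.15 on the log2 scale (adjusted p = 0.0249) ranked 6 among the lowest of all 31042 probe sets.

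Etv5 also fell with TNFα. TNFα left 0.629 and 0.439 of the DMSO level and, after U0126, 0.768 and 0.511 of the U0126 level. The fall averaged over DMSO and U0126 was 0.80 ± 0.15 (adjusted p = 0.0226), while TNFα against DMSO alone was just short of the threshold (-0.93 ± 0.21, adjusted p = 0.0533) and passed without the TNFα array of experiment 1 (-1.27, adjusted p = 0.0316) or without either U0126 array (adjusted p = 0.0300). After U0126 the TNFα effect was -0.67, with a 95% interval from -1.17 to -0.18, but it did not pass (adjusted p = 0.237, limma). The TNFα effects with and without U0126 differed by 0.25, with a 95% interval from -0.44 to 0.95 (adjusted p = 0.802, limma). Whether U0126 changed the TNFα effect therefore cannot be told from these arrays. With the combined treatment Etv5 stood at 0.248 and 0.238 of DMSO. Both averaged calls were lost without either DMSO array or either combined array, and that for U0126 also without the U0126 array of experiment 1 (adjusted p 0.0525 to 0.159), with falls of 1.06 to 1.42 for U0126 and 0.62 to 0.98 for TNFα over the 8 arrays left out in turn.

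The other Etv5 probe set disagreed. The values of 1382122_at lay between 233 and 288, with an average U0126 effect of -0.07 (95% interval -0.18 to 0.05, adjusted p = 0.546) and an average TNFα effect of -0.12 ± 0.05 (adjusted p = 0.177). The pair correlated at r = 0.707 over the 8 arrays once experiment means were removed, and which transcripts each probe set detects was not examined here. The Etv5 values above therefore rest on 1 of its 2 probe sets. With the mean of both probe sets, the average effects were smaller, at -0.65 for U0126 and -0.46 for TNFα.

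The transcripts of Etv1 were near the DMSO level with either agent alone and lower with both. Probe set 1392477_at gave 438 and 749.9 in the DMSO cultures, 409 and 797 after U0126, 489 and 702 after TNFα, and 272 and 478 with the combined treatment. Probe set 1391241_at gave 168 and 211, 154 and 223, 151 and 199.7, and 98.9 and 134 in the same order. It was dim, at a level above that of 28.2% of all probe sets. In each experiment the combined treatment was the lowest of the 4 for both probe sets.

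All 5 Etv1 probe sets had this order. With U0126 alone they were at 0.874 to 1.17 of DMSO, with TNFα alone at 0.807 to 1.25, and with the combined treatment at 0.587 to 0.836. The combined treatment was lowest of the 4 treatments in both experiments for 10 of the 17 member probe sets, from 4 genes by their given probe set, where 7.96% of all probe sets did so. In TNFα against vehicle after U0126, 2 member probe sets fell, both of Etv1, where 0.406% of all probe sets fell: 1391241_at by 0.69 ± 0.07 (adjusted p = 0.00926) and 1392477_at by 0.66 ± 0.10 (adjusted p = 0.0384). In U0126 against DMSO under TNFα, 1391241_at was the 1 member called, with a fall of 0.60 ± 0.07 (adjusted p = 0.0397), where 0.126% of all probe sets fell, and 1392477_at had -0.70 ± 0.10 (adjusted p = 0.0655).

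The difference itself, the TNFα effect after U0126 minus that under DMSO, did not pass for any probe set of Etv1. It was -0.47 to -0.70 on the log2 scale over the 5 probe sets, with 95% intervals below 0 for 4 of them, unadjusted p of 0.000738 to 0.0676 and adjusted p of 0.499 to 0.563 by limma. Of all probe sets, 0 (0%) passed in this comparison by limma, although 2833, or 9.13%, had an unadjusted p under 0.05. So did 5 of the 17 members, from 2 of the 9 genes: 4 probe sets of Etv1, all below 0, and Spry4, above 0. That Etv1 responds to the combination beyond the separate agents is thus not shown by the test. The calls after U0126 were lost without either U0126 or either combined array (and either DMSO array for 1392477_at), where adjusted p was 0.0681 to 0.256 and the values were -0.54 to -0.79, and the call under TNFα was lost without any 1 of the 8 arrays (log2 -0.58 to -0.61, adjusted p 0.0514 to 0.377). Averaged over DMSO and U0126, 1391241_at fell with TNFα by 0.41 ± 0.05 (adjusted p = 0.00533), and this call held without any 1 array, but the average joins an effect under DMSO of -0.12 ± 0.07 with the larger one after U0126.

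**Figure D3:**
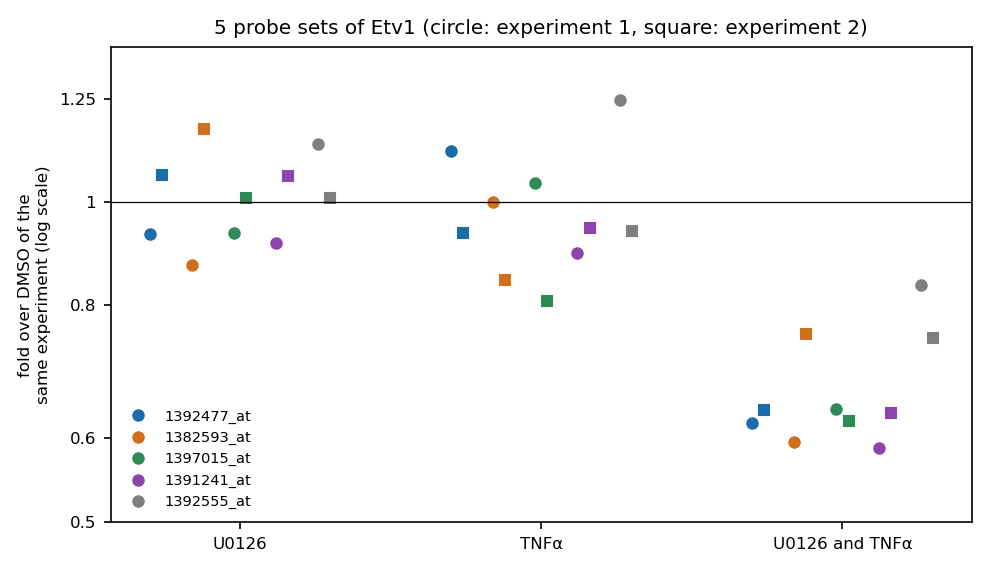
Fold over the DMSO array of the same experiment (log axis) for the 5 Etv1 probe sets, circles for experiment 1 and squares for experiment 2. With U0126 or TNFα alone the points lie on both sides of 1, from 0.807 to 1.25, and with both agents all 10 lie at 0.836 or below.

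Etv4, the third PEA3 factor, was dim, above 17.8% of all probe sets by 1386739_at and 7.97% by 1380168_at. By 1386739_at it gave 119 and 106 on the DMSO arrays, 95.7 and 94.1 on the U0126 arrays, 107 and 106 on the TNFα arrays and 98.2 and 95.9 with the combined treatment. Arrays with U0126 were below their partners in all 4 pairs for both probe sets, at 0.788 to 0.925 of them. The average U0126 effects of -0.19 ± 0.05 (adjusted p = 0.138) and -0.28 ± 0.06 (adjusted p = 0.0969) did not pass, and TNFα gave -0.02 ± 0.05 and -0.14 ± 0.06 on average (adjusted p = 0.806 and 0.188).

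**Figure D4:**
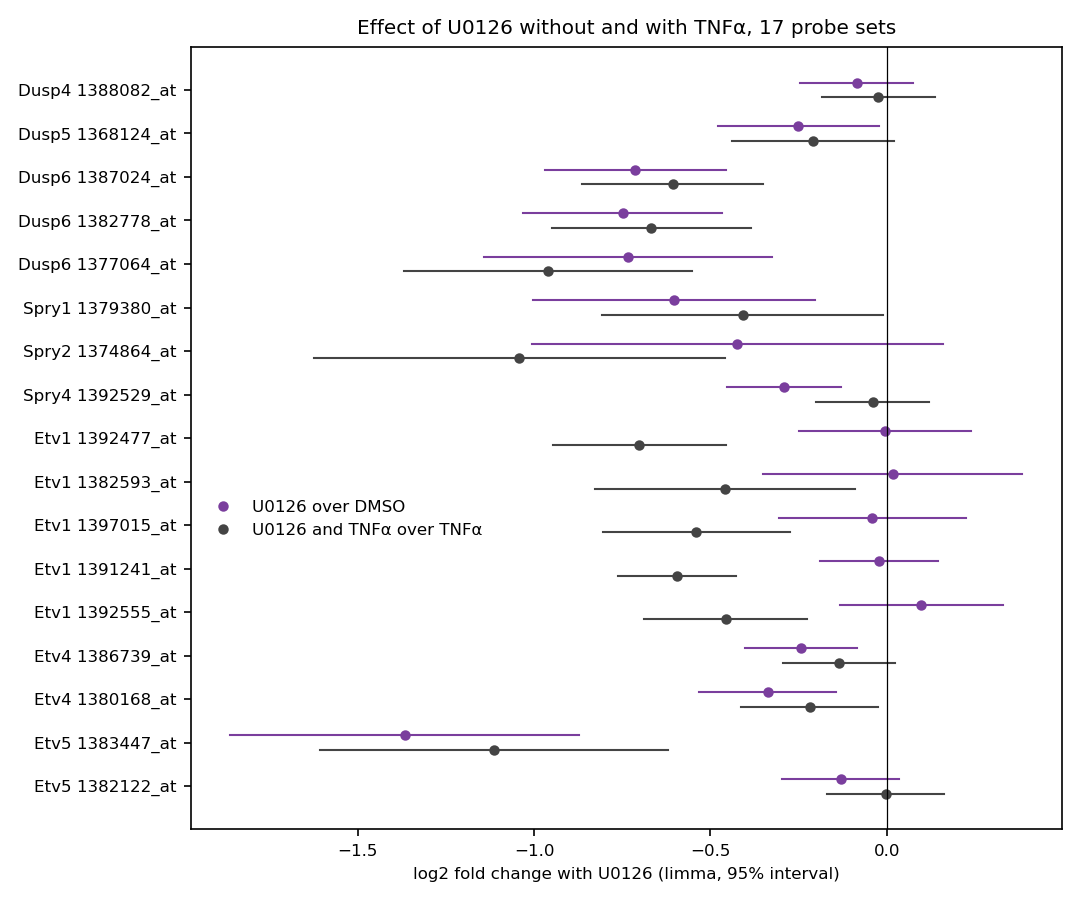
Log2 fold change with U0126 in each of the 17 member probe sets, without TNFα (U0126 over DMSO) and with it (combined treatment over TNFα), as limma estimates with 95% intervals. The 3 Dusp6 probe sets and Etv5 1383447_at lie below 0 in both, while the 5 Etv1 probe sets lie near 0 without TNFα and between -0.46 and -0.70 with it.

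Each single comparison rests on 2 pairs of arrays and held few calls. U0126 against DMSO called 0 of the 17 members by limma, and 0% of all probe sets fell, although 9 of the 17 were lower at an unadjusted p under 0.05, where 6.22% of all probe sets were. The median log2 fold change of the 17 was -0.25 for U0126 against DMSO and -0.46 for U0126 under TNFα, against -0.00 and 0.01 over all probe sets, and in the latter 12 of 17 were lower at an unadjusted p under 0.05 (6.79% of all). For TNFα the medians were -0.12 under DMSO and -0.19 after U0126 (-0.02 and -0.01 over all). Etv1 holds 5 of the 17 probe sets and weighs on these values. With each of the 9 genes given by 1 probe set, the medians were -0.29 and -0.41 for U0126 without and with TNFα. For TNFα they were -0.20 under DMSO and -0.15 after U0126, so their order turned. By gene, 6 of 9 were lower at an unadjusted p under 0.05 (limma) for U0126 against DMSO, and 5 of 9 for U0126 under TNFα. In the TNFα effect averaged over DMSO and U0126, 6 of the 17 probe sets fell, from Spry1, Spry4, Etv5 and Etv1 (3 of its 5), and 0 rose, where 3.36% of all probe sets fell and 4.56% rose. Comparisons that share arrays, as these do, are not independent of each other.

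By the fold rule of the study, which asks each experiment for 1.45-fold or more in 1 direction and gives no p value, 1 of 17 members was lower with TNFα (0.37% of all), namely Etv5, and since TNFα after U0126 left 0.768 and 0.511 of it, the fold stayed past 1.45 in experiment 2 only. With U0126 alone 4 of 17 were lower (0.11% of all), the 3 Dusp6 probe sets and Etv5. With TNFα after U0126 4 of 17 were lower (0.309% of all), all of Etv1, and with U0126 under TNFα 6 of 17 were lower (0.506% of all). No member was higher by this rule in any of the 4 comparisons.

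Of the other negative regulators of the pathway, Errfi1 was called in the average effect of U0126 only. Of 14 measured genes of a list of 17 (Dusp16, Spred2 and Il17rd were not analysed here), 1 fell with U0126 on average and 0 rose (0.309% and 0.551% of all probe sets), with a median log2 fold change of -0.00 against -0.00 over all probe sets. The product of Errfi1 inhibits the EGF receptor, and its average effect was -0.72 ± 0.11 (adjusted p = 0.0492), with 0.743, 0.651, 0.488 and 0.581 of the level without U0126 in the 4 pairs. Taken without TNFα (adjusted p = 0.299, limma) or with it (0.0926), the U0126 effect on Errfi1 did not pass. Dusp1, a phosphatase that acts on p38 and JNK as well as ERK, rose with TNFα to 3.13- and 2.08-fold of DMSO (log2 1.35 ± 0.17, adjusted p = 0.00884), and the combined treatment was at 0.502 and 0.631 of TNFα (adjusted p = 0.122). Dusp7, a relative of Dusp6, fell with TNFα on average by 0.20 ± 0.04 (adjusted p = 0.0392).

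Among 23 measured genes of a list of 23 that ERK is also known to induce, 2 fell with U0126 on average and 0 rose (0.309% and 0.551% of all probe sets), and 21 were below 0, with a median of -0.09 against -0.00 over all probe sets. The genes were the zinc finger factors Egr1, which fell by 1.35 ± 0.12 (adjusted p = 0.00955), and Egr2, which fell by 0.83 ± 0.07 (adjusted p = 0.00703). Egr1 was at 0.354 and 0.357 of DMSO with U0126, a change in the range of that of Etv5. With TNFα against DMSO 3 of the 23 rose and 0 fell (3.41% and 1.78% of all probe sets): Ier3, an early response gene (4.73- and 2.55-fold, adjusted p = 0.00637), Junb, a subunit of AP-1 (3.33- and 1.84-fold, adjusted p = 0.0154), and Zfp36, which promotes decay of inflammatory mRNAs (3.01- and 1.83-fold, adjusted p = 0.0129). Junb and Ier3 also rose with TNFα after U0126 (log2 1.36 ± 0.19 and 1.40 ± 0.20, adjusted p = 0.0286 and 0.0298), so the members that fell with TNFα and these genes moved in opposite directions under the same treatment.

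Of the cascade from receptor to ERK, 29 of 36 listed genes were analysed here. With U0126 on average 1 fell and 0 rose (0.309% and 0.551% of all probe sets), with a median of -0.04 against -0.00. This was the receptor gene Egfr, at -0.55 ± 0.06 (adjusted p = 0.0185), which was at 0.613 and 0.629 of TNFα with the combined treatment. With TNFα against DMSO 2 rose and 1 fell (3.41% and 1.78% of all). The scaffold gene Ksr1 (0.36 ± 0.07, adjusted p = 0.0394) and the receptor gene Pdgfra (0.64 ± 0.14, adjusted p = 0.0482) rose, and Pdgfrb fell (-0.34 ± 0.07, adjusted p = 0.0352). Fgfr3, the main FGF receptor gene of growing cartilage, was at 0.556 and 0.850 of DMSO with TNFα (adjusted p = 0.0639) and did not pass.

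Genes with the pattern most like those of Dusp6, Spry4 and Etv5 were ranked by Pearson r of log2 values over the 8 arrays with experiment means removed, among named probe sets above the array median. With so many probe sets and 8 arrays in 4 treatments, values near 1 occur readily and have no p here. Nearest to Dusp6 were Zswim3 (r = 0.981), Sphk1 (0.977), Coq7, Nxph3 and Fev, and nearest to Etv5 were Foxp1 (0.995), Sphk1 (0.971), Thbd, Ccn2 and Syt15. Nearest to Spry4 were Myoz1 (0.992), Zfp574, Cbln2, Hey1 and Nmur1. In the average U0126 effect, the genes nearest to Dusp6 and Etv5 varied far less than these 2 members. It was -0.11 for Zswim3 and -0.25 for Sphk1 (adjusted p = 0.262 and 0.0702, limma), against -0.66 for Dusp6. For Foxp1 it was -0.29, against -1.24 for Etv5. For the genes nearest to Spry4 the average U0126 effect ran from -0.05 for Zfp574 to -0.14 for Hey1, against -0.17 for Spry4. Their average TNFα effect, which was called for Spry4, ran from -0.09 for Zfp574 to -0.19 for Hey1, against -0.26 for Spry4. Among the members, Dusp6 and Etv5 correlated at 0.957 and Etv5 and Spry1 at 0.918.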

How the data were processed

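RNA of rat chondrocytes was hybridized to 8 single-colour arrays, 1 for each of 4 treatments in each of 2 experiments. Per the labels, RMA was used by the authors, with no version, and the deposited values are 1 linear intensity per probe set and array. The methods describe raw values in GeneSpring, scaled to the chip median and then set against DMSO, but neither step is present in the deposited intensity values, whose array medians lie between 365.1 and 378.2. How they were made is otherwise not settled by the sources used here. The arrays have no counts, so their number limits the precision, and no detection calls were used.

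Samples were grouped by the labels. Each array was centred here on its median log2 value, and intensities are given on the linear scale after centring. Of 31099 probe sets, 57 controls were left out. An array annotation of 2016 gave 1 symbol to 20826 probe sets, several to 436 and none to 9780, and the identifiers of all 9 measured members were found in the RefSeq table, used for names. Every column was used.

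All 8 arrays were fitted with limma 3.58.1 (R 4.3.3), with terms for treatment and experiment (residual degrees of freedom 3, prior 3.913, median residual SD 0.07521). The 7 comparisons were each agent with and without the other, the difference of the TNFα effects, and the effect of each agent averaged over the other. p values were adjusted by Benjamini-Hochberg over 31042 probe sets within a comparison, and a call is an adjusted p under 0.05. Replicate numbers stand for the experiments, as in the methods, which set each array against DMSO of its own experiment. After treatment means were removed, same-numbered arrays correlated at 0.7284 to 0.8293. The fit was also run on simulated data, drawn with the additive experiment shift and independent normal noise that the fit assumes. That run cannot show whether calls from 2 real arrays per treatment are sound. Python 3.11.15 with numpy 2.4.6, pandas 2.3.3 and matplotlib 3.10.9 was used for folds, motifs and figures.

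The members, gene lists and tests were chosen with earlier results of these data known, so they are not independent evidence. All probe sets of the members are described. From each list up to 4 genes with the smallest adjusted p in a comparison, and for Dusp6, Spry4 and Etv5 the 5 genes of nearest pattern, could be named. Alternatives were uncentred values, quantile normalization, a filter on the dimmest 40 percent of probe sets, a trended prior, no replicate block, fits on the compared arrays alone, leaving out each array, the mean of a gene's probe sets, fold thresholds of 1.3 and 2 and the geometric mean fold.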

Additional observations from a re-analysis of the deposited data

Results flagged for a closer look

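Etv1 1392555_at was the dimmest Etv1 probe set (above 3.63% of all probe sets). Under TNFα it was lower with U0126 in both experiments. Without TNFα it was higher with U0126 in experiment 1 and nearly unchanged in experiment 2. Its intensities were 25.5 and 49.5 on the DMSO arrays, 28.9 and 49.9 on the U0126 arrays, 31.8 and 46.5 on the TNFα arrays and 21.3 and 36.9 with both agents. U0126 gave 1.07-fold without TNFα (1.14 and 1.01 in experiments 1 and 2) and 0.728-fold with it (0.670 and 0.792). The test of the difference by limma gave -0.55 on the log2 scale with an unadjusted p of 0.00517 and an adjusted p of 0.499, so the difference did not pass.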

How the results depend on the processing

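No result reversed under any alternative. Of 1608 recomputed member values, 1476 stayed on the same side of the threshold, 91 lost and 41 gained a call, and 52 changed sign, none of them a called value. Of 188 recomputations of called values, 97 kept the call and 91 lost it.

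The replicate block decided the calls. Without it 0 members were called in each of the 7 comparisons, and over all probe sets the calls fell to 25 for TNFα against DMSO (1611 with the block), 0 for U0126 against DMSO (18), 5 for TNFα after U0126 (384), 0 for U0126 under TNFα (79), 3 for the average of U0126 (267) and 133 for the average of TNFα (2458). With 1 array left out in turn, the member calls ran from 0 to 2 for TNFα against DMSO, 0 to 4 for TNFα after U0126, 0 to 6 for U0126 under TNFα, 0 to 9 for the average of U0126 and 1 to 6 for the average of TNFα, and stayed at 0 for U0126 against DMSO and for the difference, and the calls over all probe sets ran from 456 to 1538, 20 to 579, 0 to 416, 18 to 530, 844 to 2388, 0 to 12 and 0 to 2. The lone array left in a treatment is then assumed to vary like the others.

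Fitted on only the arrays compared, member calls were 0 for TNFα against DMSO (429 over all probe sets), 2 for U0126 against DMSO (51), 6 for TNFα after U0126 (1028) and 6 for U0126 under TNFα (291). TNFα against DMSO gave 2 member calls with no centring (1645 over all probe sets), 2 with quantile normalization (1529) and 2 with a trended prior (1678). A filter on the dimmest 40 percent of probe sets kept 7 of the 17 members in the test, with 1 call for TNFα after U0126 (366 over all tested), 0 for U0126 under TNFα (57) and 2 for the average of U0126 (280). The filter removed Etv1 1391241_at, so its calls were not tested there.

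By the fold rule, TNFα against DMSO gave 2 members at 1.3-fold, 0 at 2-fold and 2 by the geometric mean. U0126 against DMSO gave 1 at 2-fold (19 over all probe sets), TNFα after U0126 gave 7 at 1.3-fold (784) and 0 at 2-fold (99), and U0126 under TNFα gave 0 at 2-fold (32). Over all probe sets, the rule gave 1166, 188 and 1147 for TNFα against DMSO, where 1.45-fold gave 628.

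With 2 arrays per treatment and 3 residual degrees of freedom, a missed threshold does not show that a gene was unaffected, and dim probe sets (Dusp4, Etv4, Etv1 1392555_at) are not known to lie above background. The cause of these dependences was not tested.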
